A study of Rattus norvegicus with 20 samples.

Results

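The data described are liver transcript levels in 5 samples from rats given 50 mg/kg per day of PBDE-47 and 5 from rats given 15 mg/kg per day, which are 10 of the 20 arrays of the series, chosen by the dose in their titles. PBDE-47 is a brominated diphenyl ether flame retardant. Dams of the Wistar Han strain (Crl:WI (Han)) were gavaged daily from gestation day 6 to postnatal day 4 with 5 mL/kg of corn oil holding 10 mg/mL (50 mg/kg), 3 mg/mL (15 mg/kg), 0.02 mg/mL (0.1 mg/kg) or no PBDE-47 (vehicle), with 5 arrays for each of the 4 groups. RNA from the left lateral lobe was hybridised to Affymetrix Rat230_2 arrays, and every value is a deposited log2 level of 1 of 31042 probe sets, all of which were tested. Whether the livers are those of dams or of offspring is not given in the labels, nor is a litter, nor that each array is another animal. The p-values therefore speak only of how far these arrays vary, and that variation may be technical.

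The liver meets halogenated aromatic compounds through receptors that switch on their own disposal. The constitutive androstane receptor (CAR) and the pregnane X receptor (PXR) raise cytochrome P450 enzymes of the 2B, 2C and 3A subfamilies together with conjugating enzymes and efflux pumps. The aryl hydrocarbon receptor (AhR) raises Cyp1a1, and NRF2 raises genes of antioxidant defence such as Nqo1. A receptor that is fully occupied gives no more response when the dose is raised, whereas a gene below that point can still climb.

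Array medians lay between 5.61 and 5.65 and the brightest probe set of each array between 14.73 and 14.82. Hepatocyte markers, 8 of 10 measured, all had an interval of the difference between the doses inside 1.5-fold. The list means of skeletal muscle markers spread from 4.49 to 6.97 at 50 mg/kg and from 4.40 to 8.72 at 15 mg/kg. Exocrine pancreas markers averaged 4.43 to 4.55 at 50 mg/kg, whereas replicates 3 and 5 at 15 mg/kg stood at 7.00 and 7.04 and the other 3 at 4.44 to 4.51. All samples are labelled female, but the 4 Xist probe sets read 2.49 to 3.62 on all 20 arrays, while a probe set of Eif2s3y read 8.79 to 9.48 and 1 of the 2 of Uty 8.65 to 9.20. These ranges cover every group, and the labels were kept as the basis of the groups.

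The comparison of 50 with 15 mg/kg asks which responses had levelled off and which had not. No probe set passed for 50 against 15 mg/kg (0 called of 31042, 0% by limma with Benjamini-Hochberg adjustment, smallest adjusted p = 0.525). At an unadjusted p under 0.05, 1749 probe sets differed (5.63%), of which 826 were higher at 50 mg/kg (2.66%) and 923 lower (2.97%). The median difference over all probe sets was -0.01, 46.7% were higher at 50 mg/kg by sign, and 92.8% had a 95% interval of the difference inside 1.5-fold, that is within 0.585 log2 units of 0 on either side.

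Responding probe sets were therefore chosen by another contrast, the mean of both doses against vehicle. With equal group sizes its estimate is uncorrelated with the difference between the doses, but both use the same estimate of spread. The choice can thus favour a small estimated spread, which also narrows the interval between the doses. Shares of intervals among the responders are therefore not independent of the choice. There were 75 of them (0.242% of those tested, adjusted p under 0.05 and at least 1.5-fold), standing for 56 genes: 48 rose and 27 fell. None passed for a further change at 50 mg/kg after adjustment. Of the 75, 23 had an unadjusted 95% interval wholly beyond 0 in the direction of the response (19 rises and 4 falls, 30.7%, against 2.66% and 2.97% of all probe sets above and below 0), and none had one in the opposite direction. In all, 28 (16 rises and 12 falls) had an interval inside 1.5-fold and were not near the top of the scale, while 4 rises inside 1.5-fold were among the brightest 1% of probe sets (mean of at least 12.19). One of the 28, Gsta3, is also among the 23. Together these 32 are 42.7% of the responders, against 92.8% of all probe sets inside 1.5-fold. The remaining 21 had intervals too wide for either description, which holds for 10 rises and 11 falls.

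The change continued in the direction of the response in 60 of the 75 by its sign. The median further change was 0.27 log2 units for the 48 rises (range -0.14 to 1.02) and 0.17 for the 27 falls (range -0.50 to 0.64). By the medians, 75.2% of the log2 rise at 50 mg/kg and 80.2% of the log2 fall were already reached at 15 mg/kg. In all 75 the upper bound lay under 1.74 log2 units, the log2 of the dose ratio, on this compressed array scale. All 5 arrays at 50 mg/kg lay beyond all 5 at 15 mg/kg for 8 responders, all rises (0.474% of all probe sets have the 50 mg/kg arrays all above). These are Aldh1a1, Dnajb3, Ddc, Alas1, Pdk4, Entpd5, the probe set shared by Cyp2b1 and Cyp2b2, and 1 probe set without a symbol. The precision rests on 5 arrays per group and on a spread estimated from all 20 arrays, vehicle and 0.1 mg/kg included. The interval reached 0.32 log2 units to either side for the median responder and 0.20 for the median probe set. Fitted on the 10 arrays of these doses alone, 27 of the 75 had an unadjusted interval beyond 0, of which 22 are among the 23. That fit placed 39 inside 1.5-fold, bright ones included, and no probe set passed (smallest adjusted p = 0.455, limma). Without the 9 arrays of the series with muscle or pancreas list means more than 2 log2 units above the lowest array, which leaves 3 at 50 mg/kg, 3 at 15 mg/kg and 4 of vehicle, 20 probe sets met the criteria and 5 of them had an interval beyond 0, while all 23 kept their direction.

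**Figure D1:**
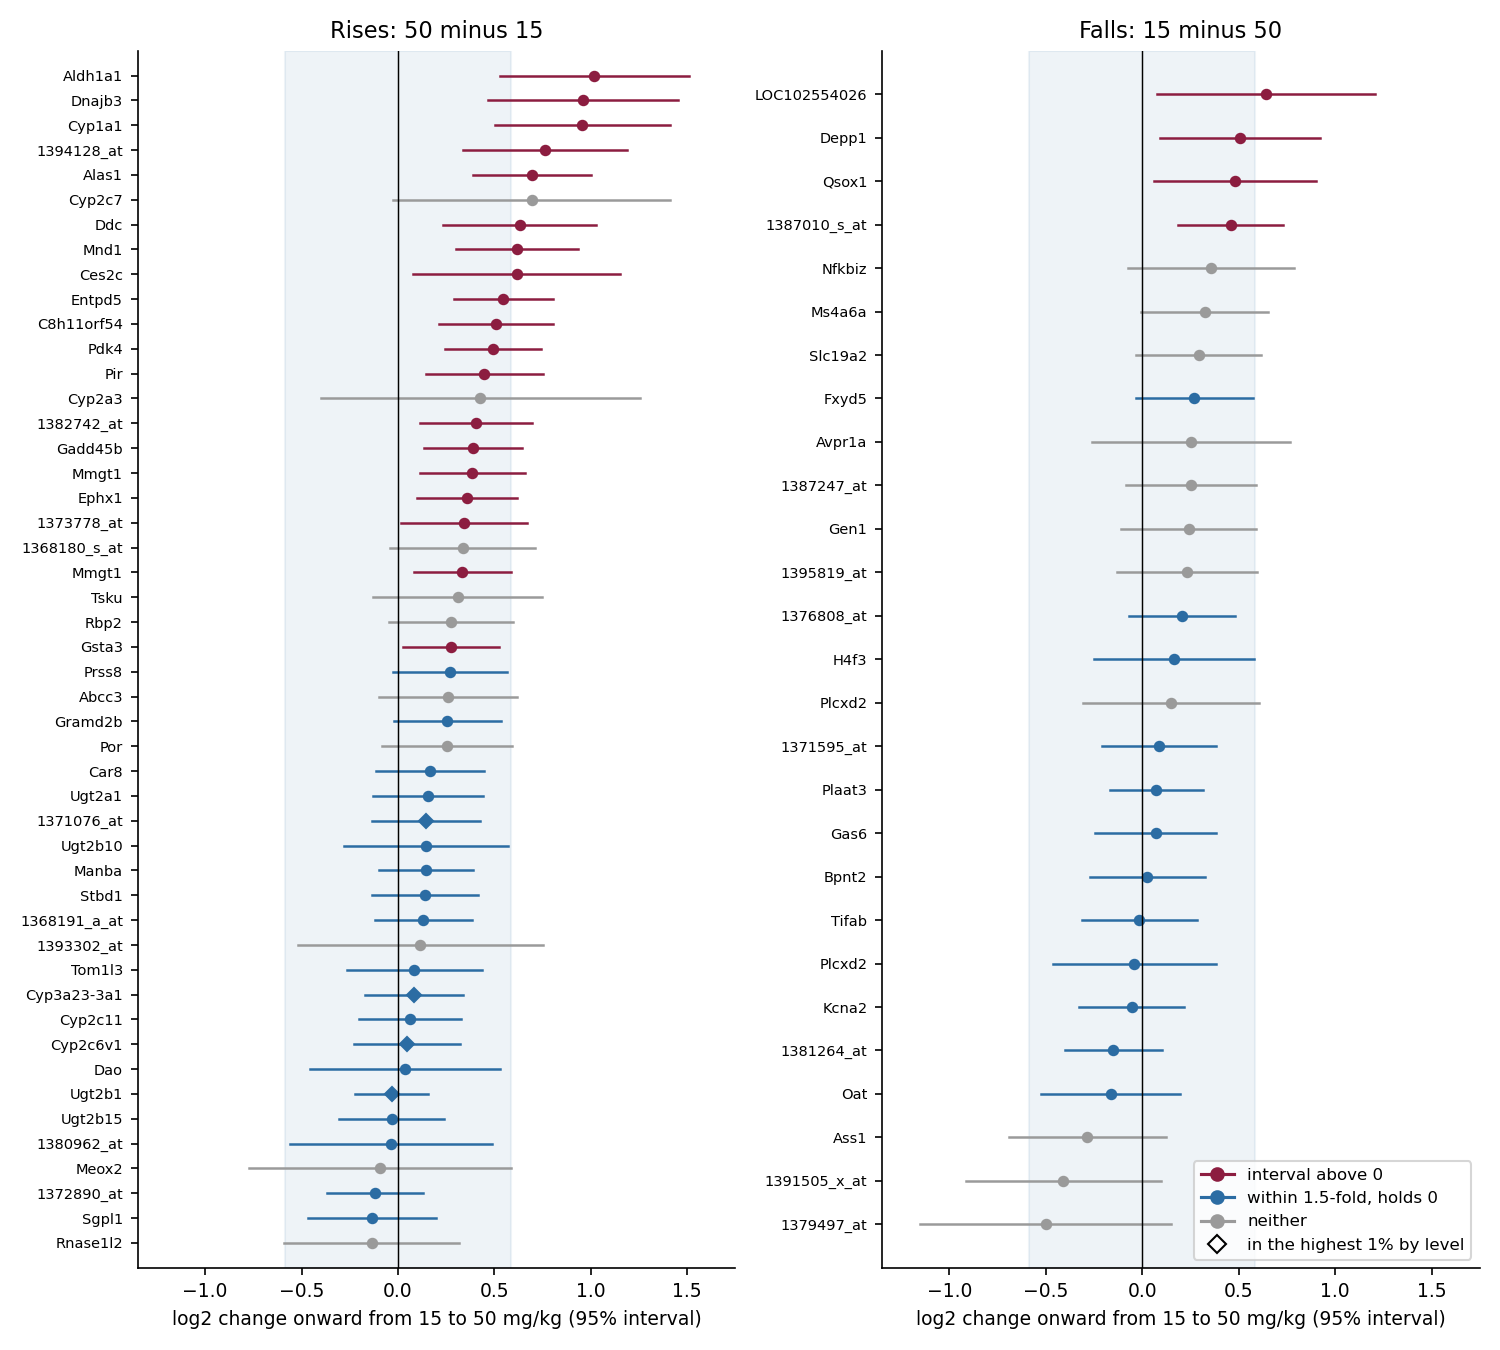
Change from 15 to 50 mg/kg of the 75 responding probe sets in the direction of their response (log2 units, point and 95% interval of the limma fit), with the 48 rises on the left as 50 minus 15 and the 27 falls on the right as 15 minus 50. The shaded band is 1.5-fold to either side of 0 (0.585 log2 units), red marks the 23 intervals above 0, blue the other intervals inside the band and diamonds the 4 in the brightest 1%.

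Among genes of the AhR list, Cyp1a1, the P450 enzyme for which that receptor is best known, was the one responder of 8 measured. Its levels were 11.33, 10.76, 10.68, 11.34 and 11.51 on the 5 arrays at 50 mg/kg, against 9.97, 10.89, 9.61, 9.92 and 10.45 at 15 mg/kg and 7.94, 7.52, 7.80, 7.88 and 7.21 in vehicle. Both dose groups stood well above vehicle, and they overlapped each other through replicate 2 at 15 mg/kg, which exceeded 2 of the 5 arrays at 50 mg/kg. The difference between the doses was 0.96 (95% interval 0.50 to 1.41), or 1.94-fold (95% interval 1.42 to 2.66), adjusted p = 0.655 by limma, and it stayed between 0.82 and 1.14 when each array was left out. Cyp1a2, a second P450 of the AhR response, read 9.41, 7.78, 8.92, 9.34 and 9.15 at 50 mg/kg, against 8.72, 9.49, 8.75, 9.44 and 8.77 at 15 mg/kg, with a difference of -0.12 (95% interval -0.81 to 0.58) whose interval holds changes in both directions. The other 6 members differed between the doses by -0.11 to 0.56, the highest being Nqo1.

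The CAR and PXR list gave 14 of the 75 responders from 26 measured genes, all rises. Of the 26, 25 were higher at 50 than at 15 mg/kg by sign, against 46.7% of all probe sets. An interval above 0 was found for 8 (2.66% of all) and an interval inside 1.5-fold for 11 (92.8% of all). The median difference was 0.26, against -0.01 over all probe sets, beside a median of 0.56 for 15 mg/kg minus vehicle. The list held both flat responses, meaning here an interval inside 1.5-fold, and continuing ones. As 1.5-fold is also the smallest response admitted, a flat response near that size can still hold a further change nearly as large. The lists were written with earlier results of these arrays known, so their counts describe the genes and are no independent evidence.

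The drug-metabolising P450 genes that are brightest in this liver were flat above 15 mg/kg. The probe set shared by Cyp2b1 and Cyp2b2, the classic phenobarbital-inducible P450 genes of rat liver, read 14.05, 13.94, 14.05, 13.99 and 14.09 at 50 mg/kg, against 13.87, 13.87, 13.86, 13.90 and 13.89 at 15 mg/kg and 11.39, 11.92, 11.92, 11.99 and 12.20 in vehicle. All arrays at 50 mg/kg were above all at 15 mg/kg, but the difference was 0.15 (95% interval -0.13 to 0.43) with 15 mg/kg standing 1.99 above vehicle. Its SD was 0.02 among the arrays at 15 mg/kg, against 0.30 in vehicle, and 33 probe sets were brighter at 15 mg/kg. Fitted on the 10 arrays of these doses alone, the interval was 0.03 to 0.27 with an adjusted p of 0.860 by limma. P450, glucuronosyltransferase and glutathione transferase genes have near-identical copies, so a probe set of 1 may also bind transcripts of another.

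Cyp2c6v1, a CAR-responsive P450 gene, read 13.88, 13.69, 13.58, 13.79 and 13.77 at 50 mg/kg, against 13.70, 13.56, 13.63, 13.79 and 13.80 at 15 mg/kg and 11.54, 12.09, 11.71, 12.28 and 12.08 in vehicle. The doses overlapped and differed by 0.05 (95% interval -0.23 to 0.32), with 97.3% of the log2 rise reached at 15 mg/kg. Cyp3a23-3a1, a PXR-responsive P450 gene, averaged 13.62 ± 0.03 at 50 mg/kg and 13.54 ± 0.07 at 15 mg/kg (SD, n = 5 each), a difference of 0.08 (95% interval -0.17 to 0.34). Cyp3a2, of the same subfamily and not a responder, averaged 13.74 ± 0.08 at 50 mg/kg and 13.72 ± 0.10 at 15 mg/kg, with 13.57 ± 0.06 in vehicle. These 4 probe sets all lie in the brightest 1%, where the array scale is compressed, and at that brightness a levelling of the transcript and a levelling of the signal cannot be told apart.

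Other P450 genes lay far below the top of the scale. Cyp2c11, which is known as the male-specific P450 of adult rat liver, averaged 5.27 ± 0.34 at 50 mg/kg and 5.21 ± 0.19 at 15 mg/kg and differed by 0.06 (95% interval -0.20 to 0.33), an interval inside 1.5-fold at low brightness. Cyp2c7 read 9.26, 6.94, 7.58, 8.55 and 7.41 at 50 mg/kg, against 6.92, 7.30, 7.34, 7.15 and 7.57 at 15 mg/kg and 4.46, 4.52, 4.17, 5.70 and 4.84 in vehicle. Replicates 1 and 4 at 50 mg/kg were the highest and replicate 2 lay below 4 of the 5 arrays at 15 mg/kg, so the difference of 0.69 (95% interval -0.03 to 1.41) was not resolved: it was 0.37 without replicate 1 at 50 mg/kg and 0.95 without replicate 2. Replicates 1 and 4 are also the arrays at 50 mg/kg that carried muscle transcripts (list means 6.65 and 6.97). Without all arrays carrying muscle or pancreas transcripts, the difference of Cyp2c7 was 0.19. Cyp2a3 differed by 0.43, with an interval that held 0 and reached beyond 1.5-fold, with 15 mg/kg standing 2.41 above vehicle, and was 0.23 without replicate 5 at 50 mg/kg.

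Alas1, which makes the first committed precursor of heme, the P450 cofactor, read 11.71, 11.53, 11.82, 12.01 and 12.05 at 50 mg/kg, against 11.01, 11.06, 11.03, 11.20 and 11.36 at 15 mg/kg and 9.62, 10.62, 10.34, 10.35 and 10.58 in vehicle. The lowest array at 50 mg/kg was above the highest at 15 mg/kg. The difference was 0.69 (95% interval 0.39 to 1.00), or 1.62-fold (95% interval 1.31 to 2.00), adjusted p = 0.525 by limma, with 54.5% of the log2 rise reached at 15 mg/kg. Of 15 measured genes of heme synthesis and turnover, 7 were higher at 50 mg/kg by sign (46.7% of all probe sets) and 2 had an interval above 0 (2.66% of all), Alas1 and Pgrmc1, the second at 0.23 (95% interval 0.04 to 0.42). The list's median difference was -0.01. Por, the reductase that passes electrons to P450 enzymes, differed by 0.26 (95% interval -0.08 to 0.59) and lost its place among the responders when vehicle replicate 2, 3, 4 or 5 was left out. Its interval was 0.03 to 0.48 in the fit of the 10 arrays at 50 and 15 mg/kg alone. Vehicle replicate 1 read 10.05 for Por, against 8.88 to 9.06 on the other vehicle arrays. A dimmer Por probe set differed by 0.09 (95% interval -0.34 to 0.52). It did not pass over both doses against vehicle (adjusted p = 0.198, limma).

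Aldh1a1, a retinaldehyde dehydrogenase, read 10.99, 10.36, 10.28, 10.95 and 9.93 at 50 mg/kg, against 9.93, 8.85, 9.15, 9.60 and 9.92 at 15 mg/kg and 9.26, 8.18, 8.60, 8.34 and 8.22 in vehicle. The dose groups met without overlapping, the lowest array at 50 mg/kg standing just above the highest at 15 mg/kg. The difference of 1.02 (95% interval 0.53 to 1.51) was 2.02-fold (95% interval 1.44 to 2.84), and the log2 rise at 15 mg/kg was 48.8% of that at 50 mg/kg. Ephx1, the microsomal epoxide hydrolase, averaged 12.17 ± 0.18 at 50 mg/kg and 11.81 ± 0.12 at 15 mg/kg, a difference of 0.36 (95% interval 0.10 to 0.62). Ces2c, a carboxylesterase, differed by 0.62 (95% interval 0.08 to 1.15), with 0.45 without replicate 1 at 50 mg/kg and 0.78 without replicate 3. Abcc3, an efflux pump for conjugates, averaged 9.86 ± 0.26 at 50 mg/kg and 9.60 ± 0.22 at 15 mg/kg, and its difference of 0.26 (95% interval -0.10 to 0.62) reached beyond 1.5-fold on the upper side while holding 0. In the fit of the 10 arrays at these doses alone, the interval was -0.03 to 0.56 for Abcc3 and -0.04 to 1.27 for Ces2c. Without the arrays carrying muscle or pancreas transcripts, the difference was 0.74 for Aldh1a1, with an interval above 0. It was 0.27 for Ces2c, 0.21 for Ephx1 and 0.33 for Abcc3, with intervals that held 0.

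**Figure D2:**
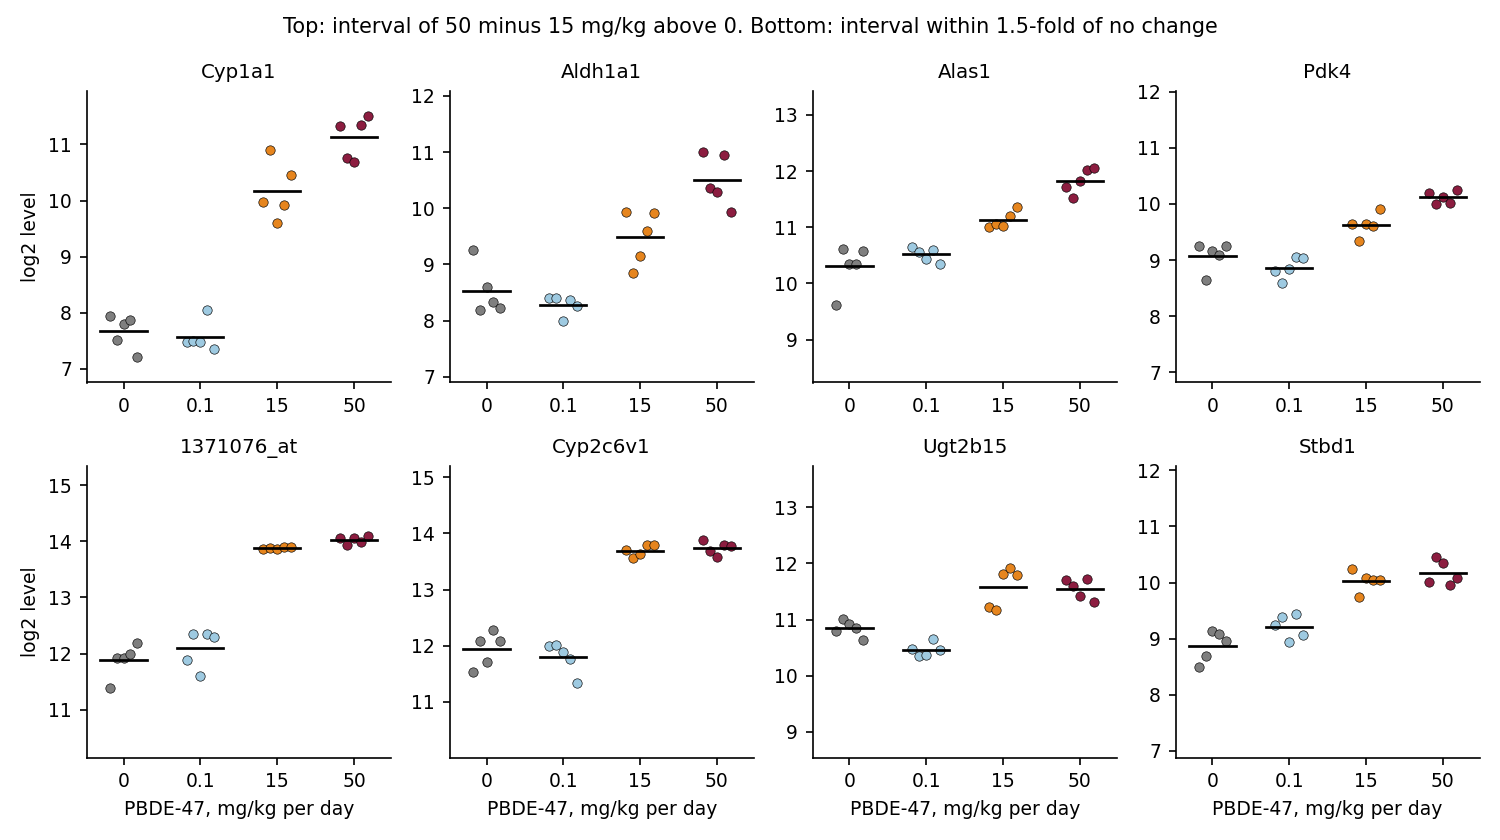
Log2 level on each array by dose (0 is vehicle, then 0.1, 15 and 50 mg/kg per day, 5 arrays each), with a black line at each group's mean and the same span of log2 units in each panel. The upper genes were still higher at 50 than at 15 mg/kg with an interval above 0, and the lower probe sets had intervals inside 1.5-fold, with mean levels at 15 mg/kg of 13.88 for the Cyp2b1 and Cyp2b2 probe set and 10.03 for Stbd1. The lower left panel, titled by its identifier, is the probe set shared by Cyp2b1 and Cyp2b2.

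Glucuronosyltransferases, which attach glucuronic acid to drugs and hormones, differed little between 50 and 15 mg/kg. All 8 measured genes of the list had an interval inside 1.5-fold, a count near the 92.8% of all probe sets. None of the 8 had an interval beyond 0 in either direction, 4 were higher at 50 mg/kg by sign, and the median difference was 0.01 beside 0.45 for 15 mg/kg minus vehicle. The mean level of the list was 8.86 to 9.18 at 50 mg/kg, against 8.81 to 9.18 at 15 mg/kg and 8.39 to 8.49 in vehicle, so the dose groups overlapped while both stood clear of vehicle. Ugt2b15 read 11.70, 11.60, 11.42, 11.72 and 11.32 at 50 mg/kg, against 11.22, 11.18, 11.81, 11.92 and 11.79 at 15 mg/kg and 10.80, 11.01, 10.91, 10.85 and 10.64 in vehicle, a difference of -0.03 (95% interval -0.31 to 0.24). Ugt2b10 differed by 0.15 (95% interval -0.28 to 0.57) with 15 mg/kg standing 1.41 above vehicle, and Ugt2a1, a dim probe set, by 0.15 (95% interval -0.13 to 0.44) after 0.55. Ugt2b1, in the brightest 1%, averaged 13.29 ± 0.13 at 50 mg/kg and 13.33 ± 0.10 at 15 mg/kg, a difference of -0.03 (95% interval -0.22 to 0.16). Of 2 probe sets shared by the same genes of the Ugt1a family, the brighter differed by 0.16 (0.03 to 0.30) and the other by 0.05 (-0.18 to 0.29), with 15 mg/kg standing 0.12 and 0.10 above vehicle.

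Flat responses outside these families included Stbd1, a glycogen-binding protein, at 10.01, 10.46, 10.34, 9.96 and 10.08 at 50 mg/kg, against 10.23, 9.74, 10.08, 10.04 and 10.05 at 15 mg/kg and 8.50, 8.70, 9.14, 9.07 and 8.97 in vehicle. All arrays of both doses exceeded all vehicle arrays, and the doses overlapped with a difference of 0.14 (95% interval -0.14 to 0.42). Manba, a lysosomal mannosidase, differed by 0.14 (95% interval -0.10 to 0.39), Car8, of the carbonic anhydrase family, by 0.17 (95% interval -0.11 to 0.45), and Dao, a D-amino acid oxidase, by 0.04 (95% interval -0.46 to 0.53). When each array was left out, their responses over both doses were 0.61 to 0.71, 0.63 to 0.72 and 0.63 to 1.05. The intervals thus hold a further change that is sizeable beside such responses. Meox2, a homeobox transcription factor, rose by 1.80 over both doses (adjusted p = 0.00271, limma), and its difference between the doses, -0.09 (95% interval -0.77 to 0.59), was too wide to place. It was -0.29 without replicate 1 at 50 mg/kg and 0.08 without replicate 2.

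Of 19 measured genes of the NRF2 list, 17 were higher at 50 than at 15 mg/kg by sign (46.7% of all probe sets), 8 had an interval above 0 (2.66% of all) and 11 one inside 1.5-fold (92.8% of all). None passed for 50 against 15 mg/kg after adjustment. Against vehicle, 3 passed over both doses, Ephx1, Gsta3 and Me1, of which Ephx1 and Gsta3 are among the responders. Ephx1 and Gsta3 are also on the CAR and PXR list. The median of the NRF2 list was 0.20 for 50 minus 15 mg/kg beside 0.05 for 15 mg/kg minus vehicle. The list mean was 9.11 to 9.21 at 50 mg/kg, against 8.82 to 9.06 at 15 mg/kg and 8.79 to 8.83 in vehicle, with no overlap between 50 and 15 mg/kg. Nqo1, a quinone reductase of the NRF2 and AhR responses, read 9.33, 9.17, 8.88, 8.74 and 8.54 at 50 mg/kg, against 7.87, 8.83, 8.23, 8.63 and 8.30 at 15 mg/kg and 8.02, 8.26, 8.06, 8.82 and 8.36 in vehicle. Its groups overlapped, and the difference of 0.56 (95% interval 0.10 to 1.03) followed 0.07 from vehicle to 15 mg/kg. Me1, the malic enzyme that makes NADPH, read 7.98, 7.35, 7.35, 7.75 and 7.53 at 50 mg/kg, against 6.79, 7.10, 6.99, 7.05 and 6.64 at 15 mg/kg and 7.04, 6.68, 6.59, 6.98 and 6.48 in vehicle, a difference of 0.67 (95% interval 0.41 to 0.94) with all arrays at 50 mg/kg above all at 15 mg/kg. It had the smallest p among the single-symbol probe sets higher at 50 mg/kg (adjusted p = 0.525, limma), and its other probe set gave 0.66 (0.31 to 1.01).

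Members of the list at the other end had intervals inside 1.5-fold. Gclc and Gclm, the 2 subunits of the enzyme that starts glutathione synthesis, differed by 0.07 (95% interval -0.23 to 0.38) and 0.11 (95% interval -0.09 to 0.30), and Hmox1, heme oxygenase, by -0.06 (95% interval -0.33 to 0.20). A further pair of enzymes were chosen after their values were seen. Such a choice favours a small or negative change from vehicle to 15 mg/kg, since the 15 mg/kg mean enters both differences with opposite sign. Akr7a3, an aldehyde reductase, read 6.93, 7.51, 8.22, 7.81 and 7.42 at 50 mg/kg, against 6.48, 6.77, 6.34, 6.26 and 7.01 at 15 mg/kg, a difference of 1.01 (95% interval 0.50 to 1.52) after -0.06 from vehicle to 15 mg/kg. Gstt3, a glutathione transferase, read 10.32, 10.18, 10.17, 10.50 and 10.41 at 50 mg/kg, against 9.70, 10.14, 9.47, 9.91 and 9.69 at 15 mg/kg, a difference of 0.53 (95% interval 0.28 to 0.79) after -0.01. Of 19 measured glutathione transferases, 17 were higher at 50 mg/kg by sign (46.7% of all probe sets), 6 had an interval above 0 (2.66% of all) and 13 one inside 1.5-fold (92.8% of all). The median of these transferases was 0.15, and 0.09 without replicate 3 at 15 mg/kg. Gsta3, the 1 responder among them, averaged 11.87 ± 0.14 at 50 mg/kg and 11.60 ± 0.17 at 15 mg/kg, and its difference of 0.27 (95% interval 0.03 to 0.52) was both above 0 and inside 1.5-fold. The glutathione transferase list shares members with the NRF2 list and with the CAR and PXR list, so their counts are not separate.

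**Figure D3:**
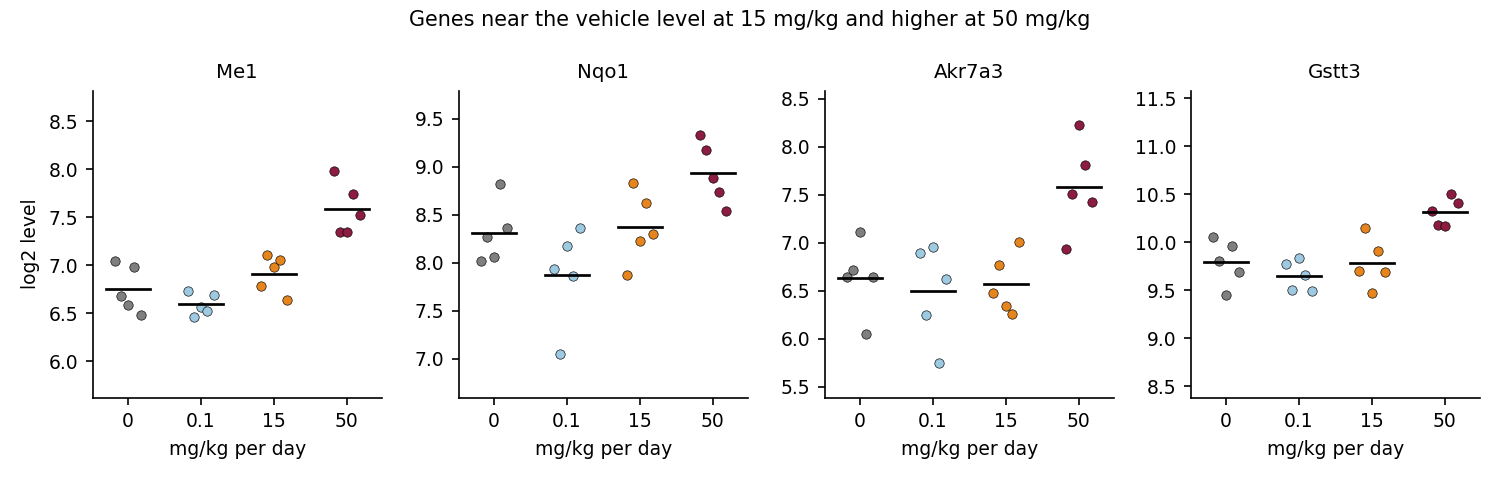
Log2 level on each array by dose (0 is vehicle, 5 arrays each, black line at the group mean) of Me1, Nqo1, Akr7a3 and Gstt3. At 15 mg/kg the means lie between -0.06 and 0.16 relative to vehicle, and at 50 mg/kg they lie 0.53 to 1.01 above 15 mg/kg. The 15 mg/kg mean enters both comparisons with opposite sign, so they are not separate evidence of a late rise.

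Promoter letters are shown for a gene that was still higher at 50 mg/kg, a late one and a flat one, to set sequence beside the dose pattern. Each is the 250 bases before the gene's start from RefSeq (GRCr8), 5′ to 3′, in lower case, with capitals marking matches on either strand to the core of the AhR element, GCGTG, or of the antioxidant element, TGACNNNGC.
Alas1, chr8:115768643-115768892, minus strand: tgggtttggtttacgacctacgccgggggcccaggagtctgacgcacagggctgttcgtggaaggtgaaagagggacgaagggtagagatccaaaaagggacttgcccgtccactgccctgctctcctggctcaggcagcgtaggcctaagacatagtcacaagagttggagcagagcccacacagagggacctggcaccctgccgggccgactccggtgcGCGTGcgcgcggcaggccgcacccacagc
Me1, chr8:96540245-96540494, minus strand: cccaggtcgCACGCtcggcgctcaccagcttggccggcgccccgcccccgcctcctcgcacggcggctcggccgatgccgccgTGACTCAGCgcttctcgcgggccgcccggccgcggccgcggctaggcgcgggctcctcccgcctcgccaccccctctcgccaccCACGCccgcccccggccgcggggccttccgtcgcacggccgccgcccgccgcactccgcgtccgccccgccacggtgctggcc
Ugt2b15, chr14:21122616-21122865, plus strand: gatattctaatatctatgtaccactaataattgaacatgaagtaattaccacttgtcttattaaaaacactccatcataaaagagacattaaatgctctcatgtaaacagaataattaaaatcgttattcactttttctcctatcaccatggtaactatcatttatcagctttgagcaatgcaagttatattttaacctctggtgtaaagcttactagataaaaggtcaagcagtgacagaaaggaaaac
Alas1 holds 1 GCGTG match, Me1 holds 2 and 1 TGACNNNGC match, and Ugt2b15 holds none of either. No match overlaps another. In the table of 33469 promoters 25.9% hold GCGTG and 10.1% hold TGACNNNGC. Of the 56 responder genes 43 had an entry. GCGTG was present in 5 of 13 promoters of genes with an interval beyond 0, in 6 of 17 inside 1.5-fold and in 4 of 13 of the rest, and TGACNNNGC in 1 of 13, 4 of 17 and 1 of 13. A match is a run of letters and no evidence of binding.

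In lipid metabolism, Pdk4, a kinase that shuts off pyruvate oxidation and a known PPARA target, read 10.20, 10.00, 10.12, 10.02 and 10.25 at 50 mg/kg, against 9.65, 9.34, 9.64, 9.60 and 9.90 at 15 mg/kg and 9.25, 8.64, 9.16, 9.08 and 9.25 in vehicle. The difference was 0.49 (95% interval 0.25 to 0.74) with no overlap between the doses, and a second, dimmer probe set gave 0.24 (0.05 to 0.43). Of 25 measured genes of the PPARA and fatty acid oxidation list, 20 were higher at 50 mg/kg by sign (46.7% of all probe sets), 5 had an interval above 0 (2.66% of all) and 16 one inside 1.5-fold (92.8% of all). The median difference was 0.10, and 0.04 without replicate 2 at 15 mg/kg. All 19 measured cholesterol synthesis genes were higher at 50 mg/kg by sign (46.7% of all probe sets), 3 with an interval above 0 (2.66% of all), and the median was 0.29 beside 0.10 for 15 mg/kg minus vehicle. The list mean was 9.67 to 10.04 at 50 mg/kg, against 9.05 to 9.82 at 15 mg/kg and 8.58 to 9.68 in vehicle, with 1 low array at 15 mg/kg, replicate 3, and 1 in vehicle. Without that array at 15 mg/kg the median difference was 0.14 and the difference of the list means 0.14, against 0.29 and 0.27 with it, and without replicate 4 at 50 mg/kg the median was 0.19. The members share regulators and arrays, so their common sign is not 19 separate observations. Of 21 lipogenesis genes, 15 were higher at 50 mg/kg by sign (46.7% of all probe sets), 12 had an interval inside 1.5-fold (92.8% of all), and the median was 0.12. An interval above 0 was found for 5 (2.66% of all), among them Acly at 0.34 (95% interval 0.08 to 0.60) and Fads1 at 0.43 (95% interval 0.04 to 0.82).

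**Figure D4:**
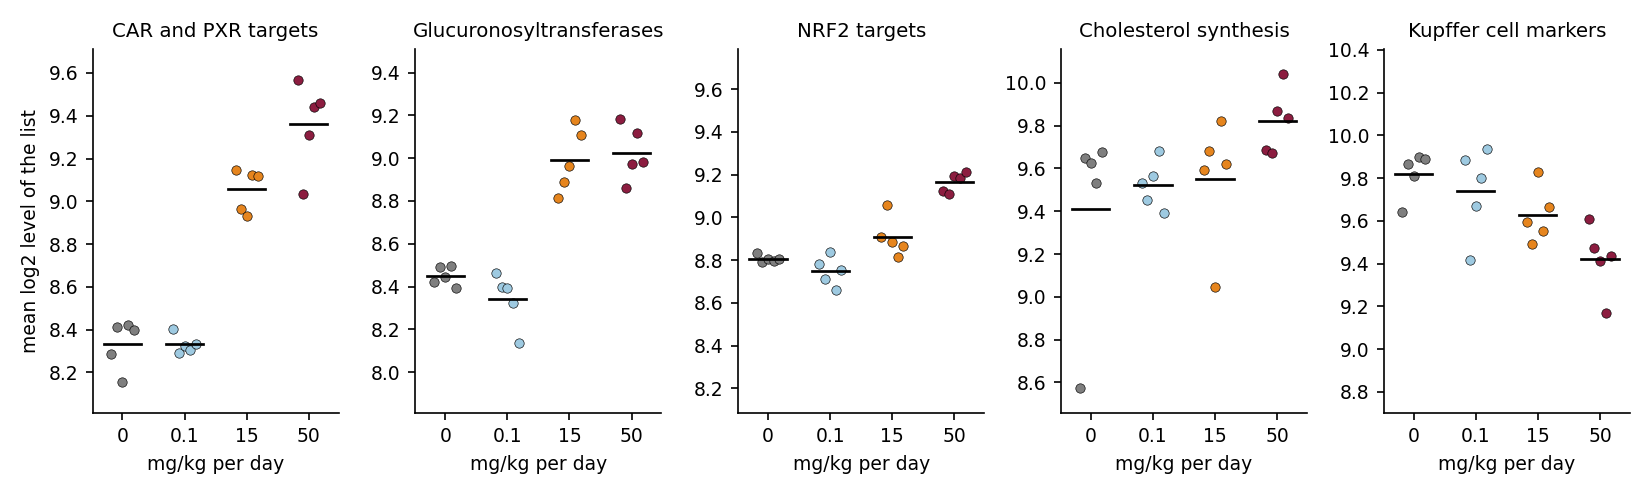
Mean log2 level of 5 gene lists on each array by dose (0 is vehicle, 5 arrays each, black line at the group mean, the same span of log2 units in each panel). Glucuronosyltransferases overlapped between the doses (8.86 to 9.18 at 50 mg/kg and 8.81 to 9.18 at 15 mg/kg), NRF2 targets separated (9.11 to 9.21 at 50 mg/kg and 8.82 to 9.06 at 15 mg/kg), and Kupffer cell markers overlapped with lower values at 50 mg/kg (9.17 to 9.61) than at 15 mg/kg (9.49 to 9.83).

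Rises with an interval above 0 outside the gene lists included Dnajb3, a DNAJ-type chaperone, at 0.96 (95% interval 0.47 to 1.45), Ddc, which decarboxylates aromatic amino acids, at 0.63 (95% interval 0.23 to 1.03), and Entpd5, a nucleoside diphosphatase of the endoplasmic reticulum, at 0.55 (95% interval 0.29 to 0.80). Their arrays at 50 mg/kg lay all above those at 15 mg/kg. Dnajb3 read 6.47, 6.52, 7.04, 6.48 and 6.99 at 50 mg/kg, against 4.85, 6.00, 5.88, 5.78 and 6.20 at 15 mg/kg. Mnd1, a meiotic recombination factor, differed by 0.62 (95% interval 0.30 to 0.93). Gadd45b, a stress-inducible gene that belongs to the CAR and PXR list, differed by 0.39 (95% interval 0.14 to 0.64). C8h11orf54 differed by 0.51 (95% interval 0.21 to 0.81) on 1 probe set and 0.04 (-0.16 to 0.25) on a dimmer one. Tsku, a secreted leucine-rich repeat protein also on the CAR and PXR list, differed by 0.31 (95% interval -0.13 to 0.75), too wide to place. Of genes with several probe sets, those of Ddc read 0.63 at a mean of 9.44 (15 mg/kg) and 0.15 at 5.56, those of Mmgt1 0.39 at 10.39 and 0.33 at 9.86, and those of Entpd5 0.55 at 9.01, 0.42 at 9.20 and 0.15 at 6.74. Those of Tmem97, not a responder, read 0.42 at 8.74 and 0.38 at 9.60. Without the arrays carrying muscle or pancreas transcripts, Dnajb3, Entpd5 and Gadd45b differed by 1.31, 0.52 and 0.35, with intervals above 0. Ddc, Mnd1 and C8h11orf54 then differed by 0.46, 0.34 and 0.28, and the Mmgt1 probe sets by 0.28 and 0.13. The intervals of these held 0.

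The 27 falls and 48 rises were chosen against the vehicle arrays, and no probe set passed for 0.1 mg/kg against vehicle (0 called by limma, 2134 at an unadjusted p under 0.05). With vehicle and 0.1 mg/kg together as the baseline, 13 falls met the criteria, 9 of them among the 27, and 54 rises, 42 of them among the 48. Depp1, a FOXO-regulated gene of autophagy, read 7.00, 7.15, 6.80, 6.37 and 7.35 at 50 mg/kg, against 7.50, 7.49, 7.59, 7.07 and 7.56 at 15 mg/kg and 8.20, 7.84, 8.01, 7.70 and 8.10 in vehicle. The difference for Depp1 was -0.51 (95% interval -0.92 to -0.09), and replicate 4 at 15 mg/kg overlapped the 50 mg/kg arrays. Qsox1, a sulfhydryl oxidase of the secretory pathway, differed by -0.48 (95% interval -0.90 to -0.06), and LOC102554026, a locus without a descriptive name, by -0.64 (95% interval -1.21 to -0.07). Depp1 and Qsox1 kept their place among the responders in 10 and 8 of the 20 fits that leave out 1 array.

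Plaat3, a phospholipase and acyltransferase, was flat at 10.22 ± 0.18 at 50 mg/kg and 10.29 ± 0.12 at 15 mg/kg, a difference of -0.07 (95% interval -0.32 to 0.17), and was 1 of 2 falls with a place in all 20 of those fits. Oat, which degrades ornithine, and Ass1, of the urea cycle, were less lowered at 50 than at 15 mg/kg by value, with differences of 0.16 (95% interval -0.20 to 0.52) and 0.28 (95% interval -0.12 to 0.69) whose intervals hold 0. Ass1 kept its place among the responders in 5 of the 20 fits, and Oat in 18. Nfkbiz, a regulator of NF-kappaB target genes, averaged 7.48 ± 0.10 at 50 mg/kg and 7.83 ± 0.35 at 15 mg/kg, a difference of -0.36 (95% interval -0.79 to 0.07), and lost its call without vehicle replicate 1 or 4. Its interval was -0.67 to -0.04 in the fit of the 10 arrays at 50 and 15 mg/kg alone. A second, dimmer Nfkbiz probe set, at 5.54 at 15 mg/kg, rose by 0.28 over both doses (adjusted p = 0.0312, limma). It differed by -0.14 (95% interval -0.286 to 0.004) between the doses. The Nfkbiz probe sets thus disagree in sign against vehicle. Serpina7, the thyroxine-binding globulin, fell over both doses by 0.34 on the log2 scale (adjusted p = 0.0305, limma), under the 1.5-fold minimum, and read 12.08, 11.78, 11.83, 11.80 and 11.60 at 50 mg/kg, against 12.05, 12.30, 11.94, 12.16 and 12.18 at 15 mg/kg, a difference of -0.31 (95% interval -0.48 to -0.13).

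Kupffer cells are liver macrophages, and their markers read lower at 50 mg/kg by sign in 10 of 10 measured genes (46.7% of all probe sets are higher), 4 with an interval below 0, C1qb, Cd68, C1qc and Csf1r, against 2.97% of all probe sets. The median difference was -0.23 beside -0.21 for 15 mg/kg minus vehicle, and the list mean was 9.17 to 9.61 at 50 mg/kg, against 9.49 to 9.83 at 15 mg/kg and 9.64 to 9.90 in vehicle. The median was -0.13 without replicate 4 at 50 mg/kg. Csf1r, the receptor that maintains macrophages, differed by -0.34 (95% interval -0.60 to -0.09). Of 7 neutrophil markers, 6 were lower by sign with a median of -0.19, between -0.31 and -0.06 when each array was left out, and none had an interval beyond 0. All 3 measured B cell markers and 10 of 11 T and NK cell markers were lower by sign, with medians of -0.30 and -0.15 and 2 and 3 intervals below 0 (2.97% of all). Their list means reached at most 5.46 and 4.69 at 50 mg/kg, under the array medians of 5.61 to 5.65. In bulk liver, fewer cells of a type and less RNA per cell cannot be told apart. The part of these cell types in the falls described above was not tested. Erythroid markers, whose list mean was 8.45 to 9.99 at 50 mg/kg and 8.25 to 10.3 at 15 mg/kg, overlapped. By sign, 1 of 11 erythroid, 1 of 10 endothelial and 0 of 5 megakaryocyte markers were higher at 50 mg/kg. Their medians were -0.10, -0.05 and -0.23, and none had an interval beyond 0. Lower values by sign were therefore not particular to the immune cell lists. Of stellate and fibroblast markers, 8 of 13 were higher by sign (46.7% of all probe sets), and none had an interval beyond 0. Their list means overlapped, at 8.23 to 9.16 at 50 mg/kg and 8.12 to 8.99 at 15 mg/kg.

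Among single-symbol probe sets, the 6 with the smallest p in each direction for 50 against 15 mg/kg included 3 responders, Alas1, Entpd5 and Cyp1a1. Higher at 50 mg/kg were Me1, Alas1, Tmem97, Syne2, Entpd5 and Cyp1a1. Tmem97, a sterol-regulated membrane protein, differed by 0.42 (95% interval 0.23 to 0.61) after -0.13 from vehicle to 15 mg/kg, and Syne2, a nuclear envelope protein, by 0.47 (95% interval 0.26 to 0.69) after -0.38. The 15 mg/kg mean enters both differences with opposite sign. Picking genes by the first therefore favours a small or negative second. Lower at 50 mg/kg were Mlc1, Naaladl1, Dtx2, Ang, Cd79b and Lrch1, with differences between -0.58 and -0.33. Mlc1, Naaladl1, Cd79b and Lrch1 were dim, with means at 50 mg/kg of 5.22, 4.83, 4.91 and 4.27, under the array medians. The other probe set of Lrch1 differed by -0.12 (95% interval -0.28 to 0.04). Mlc1 read 4.90, 5.43, 5.26, 5.38 and 5.11 at 50 mg/kg, against 5.99, 5.70, 5.69, 5.95 and 5.64 at 15 mg/kg and 5.79, 6.02, 5.72, 5.79 and 5.95 in vehicle, below on all 5 arrays. With p-values adjusted over the 8 contrasts fitted together, 4 probe sets passed for 50 against 15 mg/kg: Mlc1, Naaladl1, a probe set without a symbol and Me1 (adjusted p = 0.0193, 0.0449, 0.0358 and 0.0281, limma). That adjustment is looser here, because other contrasts hold many calls, such as 50 mg/kg against vehicle with 290. It does not bound the share of false calls among these 4. Adjusted within 50 against 15 mg/kg, all 4 stood at 0.525 (limma).

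The slope per log10 unit of dose from 15 to 50 mg/kg minus that from 0.1 to 15 mg/kg passed for no probe set (0 called, 0%, smallest adjusted p = 0.948 by limma, 1541 or 4.96% at an unadjusted p under 0.05). At that unadjusted threshold 2 of the 75 responders were flatter above 15 mg/kg, Cyp2c6v1 (0.09 per log10 unit above and 0.87 below) and Ugt2b1 (-0.06 and 0.46). At that threshold 12 were steeper, among them Alas1 (1.33 and 0.28) and Aldh1a1 (1.95 and 0.55). No dose lay between 0.1 and 15 mg/kg, so a slope there averages over an unmeasured range.

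Brightness was set beside these patterns because RMA values flatten near the top of the scale and in the background at the bottom. Split by mean level into sets of 16, the 48 rises gave 7 of 16 intervals above 0 in the dimmest set, 7 of 16 in the middle and 5 of 16 in the brightest, with median differences of 0.31, 0.37 and 0.15. Intervals lay inside 1.5-fold in 6, 4 and 10 of 16. The median rise from vehicle to 15 mg/kg was 0.73, 0.70 and 0.83. The 4 responders in the brightest 1% read 13.10 to 14.09 at 50 mg/kg, under the 14.73 to 14.82 of the brightest probe set of each array.

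**Figure D5:**
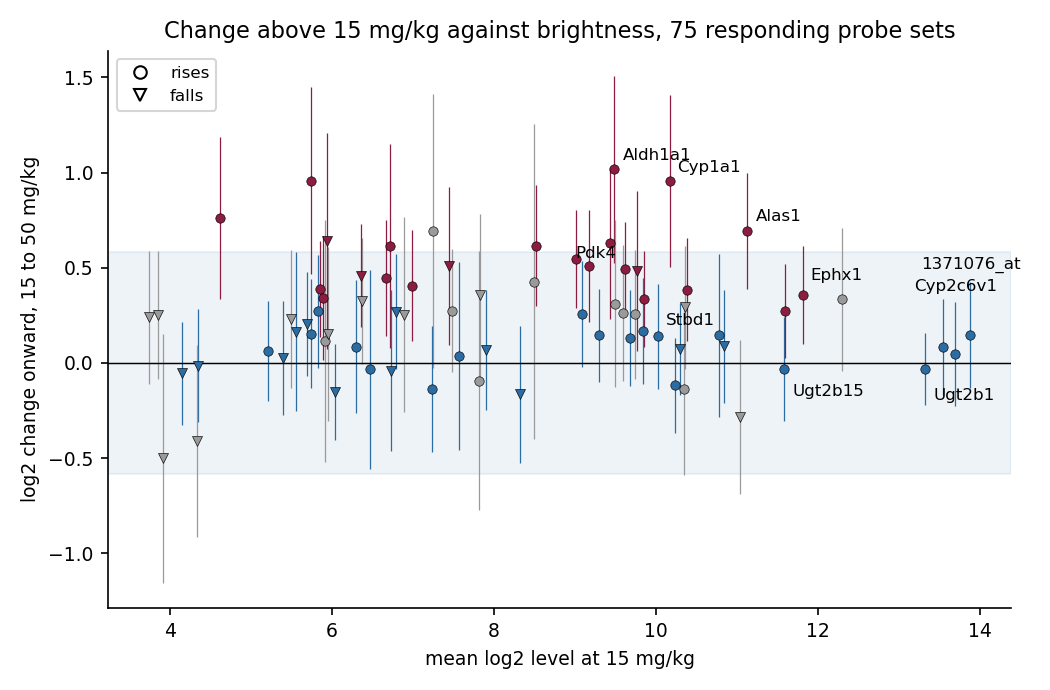
Log2 change from 15 to 50 mg/kg in the direction of the response (point and 95% interval) against the mean log2 level at 15 mg/kg for the 75 responding probe sets, circles for rises and triangles for falls. Red marks intervals above 0, blue the others inside 1.5-fold (shaded), grey the rest. Red points reach up to Ephx1 at 11.81, and the points above a level of 13 are all blue.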

How the data were processed

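Liver RNA (100 ng per sample) was measured on 20 arrays in 4 groups of 5, and groups were taken from the sample titles. The deposited values are log2 levels per probe set. They were made by the authors with RMA, which corrects background, quantile-normalises and summarises probes, per the submitters' processing notes, which give no version here. RMA sets all arrays to 1 distribution and compresses ratios near both ends of the scale, and the log2 level keeps no count or depth, so precision is limited by 5 arrays per group.

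Of 31099 probe sets, 57 controls were left out and 31042 tested with no filter on dim values. The platform annotation gave 1 symbol for 20826 probe sets, several for 436 and none for 9780. Group means of all 20 arrays were fitted in limma 3.58.1 (R 4.3.3) with lmFit and eBayes, with 8 contrasts each adjusted by Benjamini-Hochberg over all probe sets. The fitting code was tested on simulated data. Figures used Python 3.11.15 and matplotlib 3.10.9.

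Named genes were the 6 single-symbol probe sets with the smallest p in each direction for 50 against 15 mg/kg, the 15 largest rises and 10 largest falls among responders, the 5 most and 5 least changed from 15 to 50 mg/kg relative to the response, up to 4 members of each list by their p against vehicle, and index genes chosen with earlier results known. Any other gene named was chosen after its values were seen. The members, lists and rules were chosen with earlier results of these data known. Alternatives tried were a replicate block, leaving out each array, leaving out arrays carrying muscle or pancreas transcripts, adjustment over all contrasts, other fold minimums and margins, a fit of 10 arrays and a baseline including 0.1 mg/kg.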

Additional observations from a re-analysis of the deposited data

Results flagged for a closer look

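Within groups of 5 arrays, 8 of 182 sets of values held 1 array far from the other 4, where chance gives about 1 in 20. Entpd5 read 9.86 on replicate 2 at 50 mg/kg, against 9.40 to 9.53 on the others. Rnase1l2, a ribonuclease gene, read 9.91 on replicate 1 at 50 mg/kg, against 10.2 to 10.4. At 15 mg/kg, Plcxd2 read 7.42 on replicate 2, against 6.41 to 6.67, Depp1 read 7.07 on replicate 4, against 7.49 to 7.59, and Gsta3 read 11.3 on replicate 3, against 11.6 to 11.7. Among list means at 15 mg/kg, acute phase genes stood at 12.2 on replicate 2, against 11.8 to 11.9, cholangiocyte markers at 6 on replicate 4, against 6.45 to 6.55, and skeletal muscle markers at 8.72 on replicate 3, against 4.40 to 5.14.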

How the results depend on the processing

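Over 20 fits that each leave out 1 array, 0 probe sets passed for 50 against 15 mg/kg, 0 responders passed for a further change and 0 passed for the slope. The count of responders was 55 (without replicate 5 at 15 mg/kg) to 85 (without replicate 2 at 15 mg/kg), that of responders inside 1.5-fold and not near the top 20 to 37, and that of intervals beyond 0 17 to 27. In every one of these fits 39 responders met the criteria (37 rises and 2 falls), 18 of the 28 stayed inside 1.5-fold, and 17 of the 23 had an interval beyond 0. Without the arrays carrying muscle or pancreas transcripts there were 20 responders, 4 inside 1.5-fold and 5 with an interval beyond 0, from fewer arrays. Adjustment over all contrasts, where calls of other contrasts loosen the cut-off, called 4 probe sets for 50 against 15 mg/kg and 2 for the slope. With no minimum fold there were 242 responders and 187 inside 1.5-fold, and with at least 2-fold 23 and 3. By the unadjusted interval 23 responders were still changing. The narrower margin tried left 3 inside it and a margin of 2-fold 61. Same-numbered arrays at 50 and 15 mg/kg deviated with correlations of -0.0926, 0.209, 0.103, 0.119 and 0.0423, so the numbers were not taken to pair samples. With the replicate block there were 72 responders, 32 inside 1.5-fold, 25 with an interval beyond 0, and 0 calls for 50 against 15 mg/kg, for a further change and for the slope. For the named genes, 1631 of the recomputed differences between 50 and 15 mg/kg moved by less than their spread and 2 by more, and 183 of the recomputed responses to both doses lost their call while 1029 did not. Leaving out each array for the gene lists, and the count of intervals beyond 0, were chosen after seeing the data. Depth is unknown for arrays, and the number of arrays limits what can be told apart.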
